A study of Mus musculus with 6 samples.

Results

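Among the genes listed as higher in U14 cells that overexpress the forkhead transcription factor FOXP1, 70 were at least 4 times as high in one library of that group, number 2, as in another, number 3, and the 61 left after 9 were set aside by name are described here. U14 is a mouse cervical carcinoma line, and messenger RNA was sequenced from 3 libraries of wild-type cells and 3 libraries labelled OEFOXP1, here called overexpression libraries 2, 3 and 4. Both groups were of the same line, and neither a treatment, a time, the overexpression construct nor whether a clone was used is given in the sources used here. Library 4 is a column of the overexpression group whose number matches no sample title. Separate cultures are not stated for any group, and p-values then measure only the spread between these libraries, which may be technical. The authors deposited a table of 1722 changed genes, 1505 of them higher and 217 lower in overexpression, with a level in FPKM (fragments scaled to transcript length and library size) for each library.

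The 61 genes were selected on measured values. Their mean FPKM was higher in overexpression than in wild type, and library 2 was at least 4 times library 3. These numbers alone were met by 70 of the 1505 rising genes, and 9 were set aside by name: Jchain, Mzb1, Xbp1, Trp53inp1, Lax1, Ccl21a, Hepacam2, Slc16a5 and Slc12a3. The high level in library 2 and the low level in library 3 are therefore a description of how the genes were chosen, and no test is given for either. Just outside the threshold stood Edil3, Camk2b, Arid3a, Cacna1e and Rasgrp3, with ratios of library 2 to library 3 of 3.99 down to 3.83. Just inside stood Pou2af1, Rhobtb1, Hook1, Tnfrsf17 and Akap17b, with ratios of 4.06 to 4.23, so the threshold divides a continuous range. Of the 61 genes, 56 have a gene symbol, among them the clone name 2410004P03Rik. The other 5 are predicted or uncharacterised loci with Gm or LOC names.

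Plasma cells are antibody-secreting cells that arise from B cells. They enlarge the endoplasmic reticulum, in which antibody chains are folded, sugar-modified and, when misfolded, degraded, and the factors IRF4 and XBP1 drive that change. Lymphatic endothelium lines the vessels that drain tissue fluid, and depends on the homeobox factor PROX1. Embryonic and perinatal myosins mark muscle fibres that are being formed or rebuilt. Bulk RNA does not separate cells, so fewer cells of a type and less RNA per cell cannot be told apart in any value below. The wild-type libraries also held transcripts named for other cell types. The macrophage gene Lyz2 read 947 to 1484 FPKM there and the fibroblast gene Dcn 76.4 to 85.9. The plasma cell gene Jchain read 146 to 218 FPKM and the T cell gene Cd3g 11.5 to 19.3. Which cells any of these transcripts came from was not tested.

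By roles assigned after the values were seen, the 61 genes were put in groups. These were named for the B and plasma cell lineage, the secretory pathway and glycan enzymes, lymphatic endothelium, muscle, nerve or excitable cells, and other. The skeletal muscle, neuron and Schwann cell marker lists hold none of the 61. The ratio of library 2 to library 3 had a median of 7.58 and ran from 4.06 to 29.4, while over the other 1444 rising genes the median was 1.08. Library 4 lay between libraries 2 and 3 for 57 of the 61 genes, against 450 of the other 1444 rising genes. The rule set libraries 2 and 3 at least 4 times apart, so the count of 57 is set in part by that choice. Library 4 was above library 2 for Prss35, Lrrn3 and Pcdh10 and below library 3 for Myl4. Its level was a median of 59.8% of library 2, against 110% over the other rising genes. It was at least 2 times library 3 for 56 of the 61 genes. The set was therefore not high in library 2 alone: for most of its genes libraries 2 and 4 were high and library 3 was low. The share of 91.8%, against 13.6% of the other rising genes, is set in part by the choice of genes low in library 3.

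**Figure D1:**
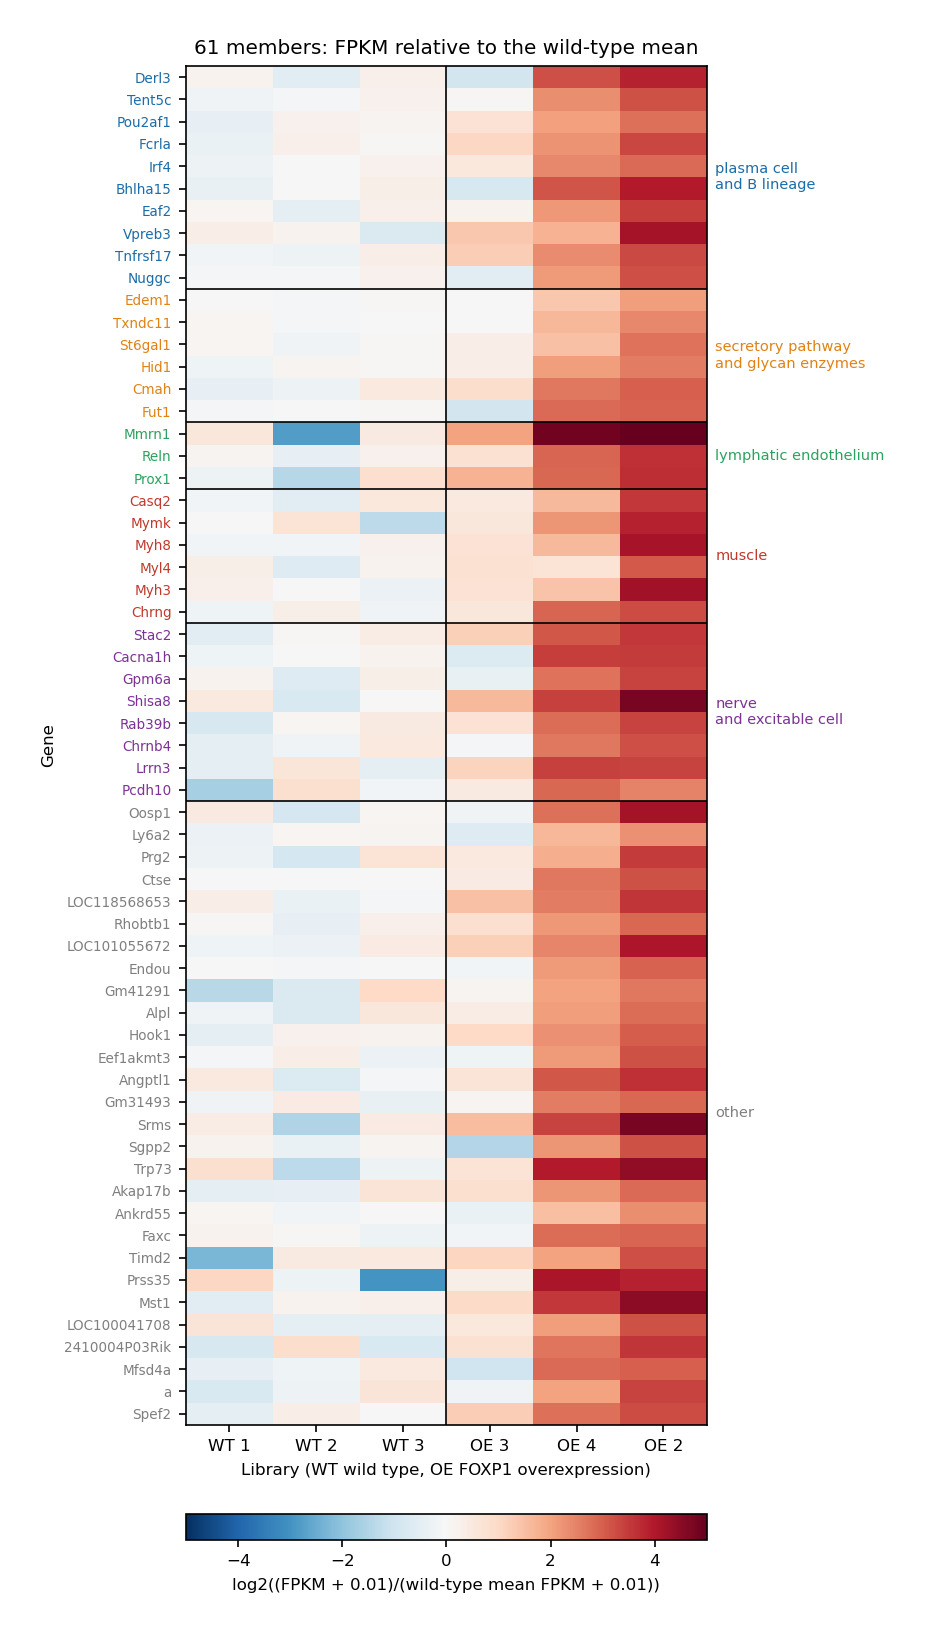
Log2 ratio of FPKM to the wild-type mean, with 0.01 FPKM added to both, for the 61 genes (rows) in each library (columns), grouped by role. Libraries 4 and 2 are red throughout, with medians of 2.39 and 3.27, and library 3 is close to wild type with a median of 0.51.

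Against wild type, library 4 was above every wild-type library for 61 of 61 genes. This is close to the other rising genes, for which it was so in 1421 of 1444 (98.4%), and library 4 had entered the choice through the group mean and the authors' call. The median log2 ratio of library 4 to the wild-type mean was 2.39 for the 61 genes and 1.60 for the others, and 1.08 for the 61 when each library was scaled to the median of the listed genes. Library 3, low in these genes by the way they were chosen, stood apart in the other direction. It was above every wild-type library for 30 of the 61 genes (49.2%), within their range for 21 and below all of them for 10, whereas it was above for 1416 of the other 1444 (98.1%). The median log2 ratio of library 3 to wild type was 0.51, against 1.31 for the other rising genes, and turned to -0.53 under the same scaling. The 10 genes below every wild-type library in library 3 were Derl3, Bhlha15, Nuggc, Ly6a2, Cacna1h, Endou, Fut1, Sgpp2, Ankrd55 and Mfsd4a.

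**Figure D2:**
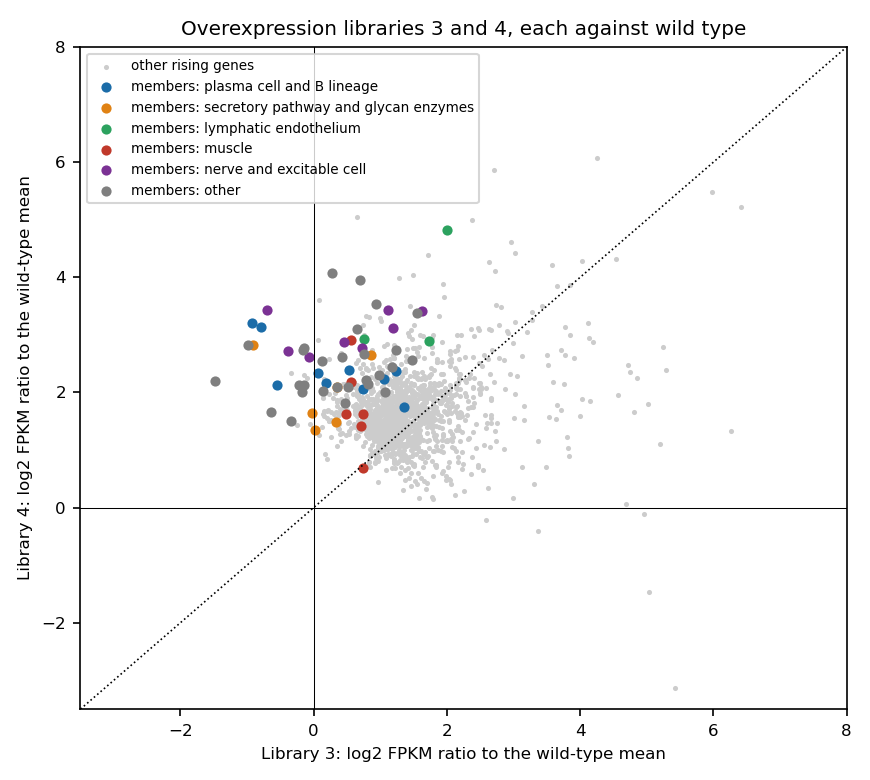
Log2 ratio of FPKM to the wild-type mean in overexpression library 3 (horizontal) and library 4 (vertical) for the 1505 rising genes, which share the wild-type libraries; coloured points are the 61 genes by role and the dotted line marks equal ratios. All coloured points but that of Myl4 lie above the line.

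Every one of the 61 genes is higher in the authors' deposited table by construction, against 9.59% of 15689 genes tested. Their count therefore says nothing about the set. The total of 15689 was worked out from the ratio of q-value to p-value at the smallest p-value, and the authors' own number was not used. In the authors' deposited table the log2 fold of these genes ran from 1.33 to 4.71 with a median of 2.50, and the q-value was over 0.01 for 27 of them (44.3%, against 21.9% of the other rising genes). The groups did not overlap for 30 of them (49.2%), where this held for 92.3% of all rising genes. That lower share is set in part by the choice of genes low in library 3. Limma's moderated test on log2(FPKM + 1) called 26 of the 61 (42.6%), against 36.5% of the listed rows. The 1722 listed rows hold 217 lower genes, while all of the 61 are rising. Those lower genes pull down this share and the later shares of listed rows. Limma's voom on read counts rebuilt from the FPKM values called 33 (54.1%), against 81.6% of the listed rows. Without library 2 voom called 24 (39.3%), against 75.4%, and without library 3 it called 61, against 80.3%. These fits use the contrast that chose the genes and support nothing about them.

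Genes of the B and plasma cell lineage made up 10 of the 61, with a median of 24.7 FPKM in library 2, 2.54 in library 3 and 13.3 in library 4. Derl3, a membrane component of the machinery that exports misfolded proteins from the endoplasmic reticulum, read 95.9, 3.50 and 61.9 FPKM in overexpression libraries 2, 3 and 4. Its wild-type libraries 1, 2 and 3 read 7.62, 4.50 and 7.90 FPKM. Libraries 2 and 4 were thus high and library 3 was below every wild-type library. Pou2af1, a coactivator of octamer-binding factors in B cells, read 60.8, 14.99 and 37.6 FPKM in libraries 2, 3 and 4, and 6.68, 10.4 and 9.90 in wild type, with no overlap between the groups. Irf4, a transcription factor required for plasma cell formation, read 31.5, 6.38 and 23.1 FPKM, and 3.68, 4.42 and 5.10 in wild type. Here too the groups did not overlap, though library 3 was only just above the highest wild-type library.

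Bhlha15, the secretory cell factor MIST1, read 18.0, 0.659 and 10.1 FPKM in libraries 2, 3 and 4. Its wild-type libraries read 0.874, 1.15 and 1.40 FPKM, all above library 3. The marker list that holds Bhlha15 is that of salivary and lacrimal gland, of whose 14 genes it was the 1 in the table, and it was put with the plasma cell genes by hand. The ratio of library 2 to library 3 was 27.3 for Bhlha15 and 27.4 for Derl3, and only that of Sgpp2, 29.4, was larger among the 61. Tent5c, a poly(A) polymerase that lengthens the tails of immunoglobulin mRNA, read 63.2, 7.31 and 35.2 FPKM, and 6.14, 6.71 and 8.14 in wild type. Library 3 was within the wild-type range. Eaf2, a transcription elongation factor partner, read 15.4, 1.58 and 6.25 FPKM, and 1.504, 1.02 and 1.65 in wild type. Tnfrsf17, the survival receptor BCMA of plasma cells, read 6.54, 1.56 and 3.45 FPKM against 0.594, 0.554 and 0.821 in wild type, and all 3 overexpression libraries were higher.

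The levels of the 10 genes of this lineage in library 4 were 19.0% to 73.3% of those in library 2, with a median of 54.3%. The lowest share was that of Vpreb3, a protein of B cell precursors, at 7.67, 1.10 and 1.45 FPKM in libraries 2, 3 and 4 and 0.541, 0.481 and 0.249 in wild type, which rest on 115, 20 and 23 fragments and on 9, 8 and 4. Fcrla, an intracellular Fc receptor-like protein of B cells, read 35.6, 7.22 and 16.4 FPKM, with 2.74, 4.10 and 3.61 in wild type. Nuggc, a GTPase of germinal centre B cells, read 6.47, 0.458 and 2.99 FPKM, with 0.627, 0.626 and 0.780 in wild type, so that library 3 was the lowest of the 6.

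**Figure D3:**
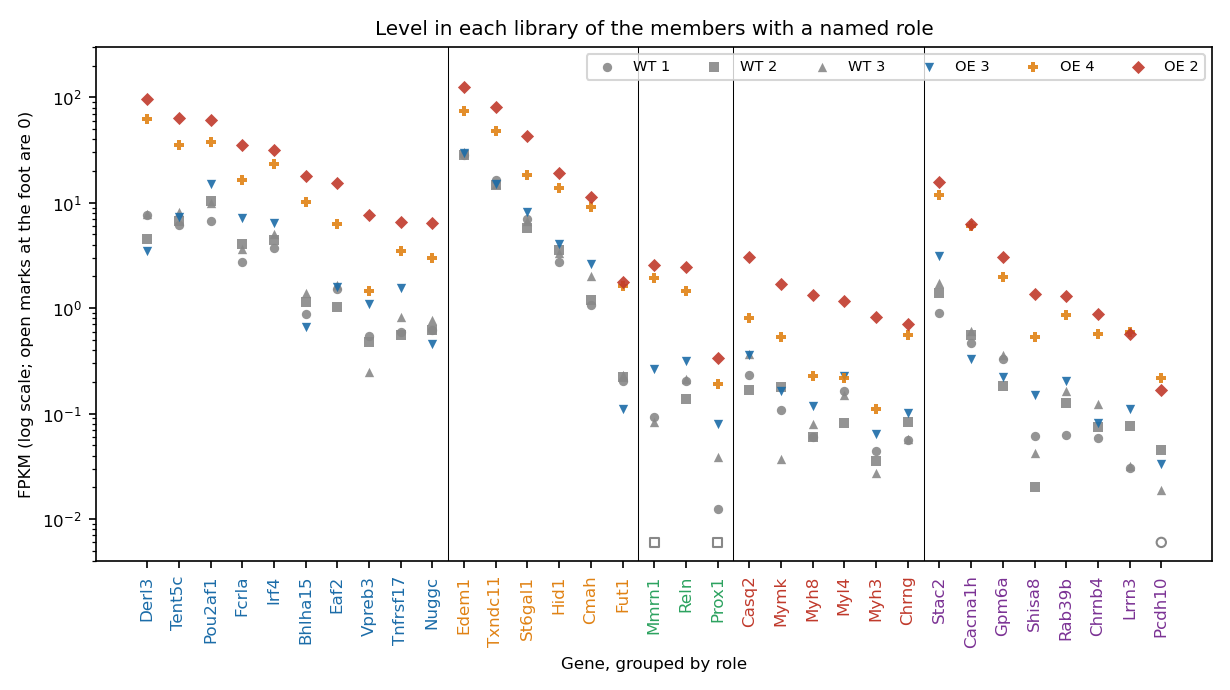
FPKM on a log scale in each of the 6 libraries for the 33 genes with a named role, grouped by role; grey marks are wild type, and open marks at the foot are values of 0. Overexpression library 2 (red) and library 4 (orange) lie above the grey marks for every gene, and library 3 (blue) lies among or near them for many, as for Edem1 at 29.3 FPKM.

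Of 23 plasma cell genes, 12 were in the table, all higher, and 5 of them are among the 61 (Derl3, Pou2af1, Irf4, Eaf2 and Tnfrsf17). Another 3 meet the numbers and were set aside by name. Library 4 exceeded library 3 in 12 of 12, while over the 1444 rising genes outside the 61 it was below library 3 in 481. Library 2 exceeded library 3 in 12 of 12, with a median ratio of library 2 to library 3 of 4.19. This ratio is the one that chose the 61 genes, so the medians of lists that hold some of them are a description. The 12 genes summed to 4442, 407 and 1736 FPKM in overexpression libraries 2, 3 and 4, and to 282 to 398 FPKM in wild type, with no value at 0. By gene, library 3 was above every wild-type library in 8 of the 12. Jchain, the chain that joins antibody units, made up most of the sum in every library. It read 2997, 213 and 1084 FPKM in libraries 2, 3 and 4 and 146 to 218 in wild type.

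General B cell markers followed another pattern. Of 17, 14 were in the table, all higher, and 2 are among the 61 (Fcrla and Vpreb3), with a median ratio of library 2 to library 3 of 1.37. Library 2 exceeded library 3 in 10 of the 14 and library 4 exceeded library 3 in 6 of the 14. They summed to 363, 141 and 145 FPKM in libraries 2, 3 and 4 and to 31.6 to 61.0 in wild type. The 2 most abundant, the antigen receptor chains Cd79b and Cd79a, read 126, 34.2 and 44.8 FPKM and 109, 34.4 and 44.3 FPKM in libraries 2, 3 and 4. Of 19 T cell genes, 16 were in the table, all higher, and none is among the 61. Their median ratio was 1.11. Library 2 exceeded library 3 in 10 of the 16 and library 4 exceeded library 3 in 14, so the latter was not particular to plasma cell genes. The 16 genes summed to 262, 255 and 303 FPKM in the 3 overexpression libraries and to 58.9 to 99.9 in wild type. In the germinal centre list 4 of 11 genes were in the table and 1 is among the 61 (Nuggc). These lists were written with earlier results of these data known, and the differences between lists were not tested.

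**Figure D4:**
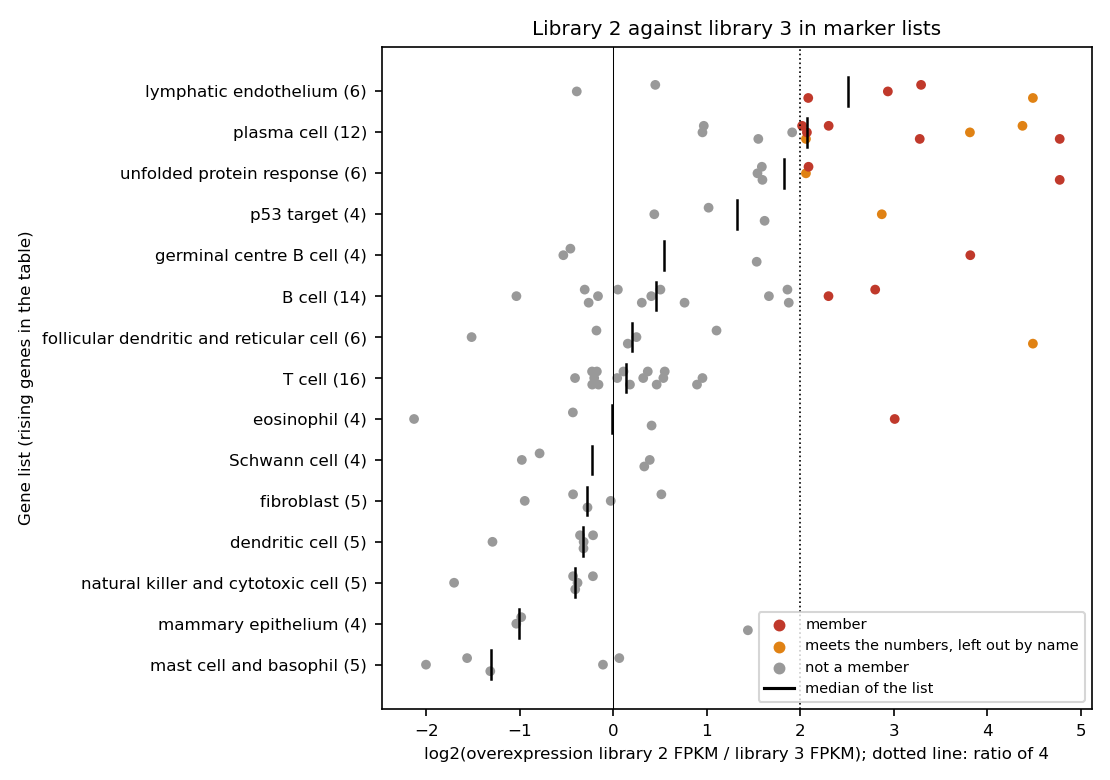
Log2 ratio of FPKM in overexpression library 2 to library 3 for the rising genes of each marker list with at least 4 of them, with list medians as black bars. The medians of the plasma cell (12 genes) and lymphatic endothelium (6 genes) lists lie past the dotted line at a ratio of 4, which genes of 6 other lists also pass, and the T cell list (16 genes) centres near a ratio of 1.11; Elf5 of the mammary list, at 0 in library 2, cannot be drawn.

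Genes of the secretory pathway and of glycan enzymes made up 6 of the 61. Their median was 31.1 FPKM in library 2, 6.12 in library 3 and 15.9 in library 4. Edem1, a lectin-like protein that delivers misfolded glycoproteins for degradation, read 125, 29.3 and 74.1 FPKM in libraries 2, 3 and 4. Its wild-type libraries read 28.4, 28.2 and 30.6 FPKM, a range that holds library 3. Txndc11, a thioredoxin-domain protein of the endoplasmic reticulum, read 80.4, 15.1 and 48.1 FPKM, with 16.2, 14.9 and 15.01 in wild type. For both genes the wild-type libraries were nearly equal, so libraries 2 and 4 stood far outside their spread and library 3 did not.

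St6gal1, which adds terminal sialic acid to glycoproteins, read 43.1, 8.17 and 18.2 FPKM in libraries 2, 3 and 4, and 6.93, 5.79 and 6.77 in wild type. Cmah, which hydroxylates the sialic acid donor, read 11.4, 2.61 and 9.01 FPKM, with 1.08, 1.19 and 2.00 in wild type. Hid1, a protein of secretory granule formation, read 19.0, 4.07 and 13.7 FPKM, with 2.75, 3.54 and 3.31 in wild type. In these 3 genes the groups did not overlap. Fut1, a fucosyltransferase, was low at 1.76, 0.111 and 1.62 FPKM, and its library 3 rested on 6 fragments.

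Of 21 genes of the unfolded protein response, 6 were in the table, all higher, and 2 are among the 61 (Edem1 and Derl3). Their median ratio of library 2 to library 3 was 3.55. Library 4 exceeded library 3 in 6 of 6, while it was below library 3 in 481 of the 1444 rising genes outside the 61. Xbp1, the response's transcription factor, read 404, 96.7 and 271 FPKM, and its ratio of 4.17 met the numbers before it was set aside by name. The summed level of the 6 was 876, 213 and 555 FPKM in libraries 2, 3 and 4 and 167 to 203 in wild type. By the terms that the table gives, 7 of the 61 genes (11.5%) are annotated to the endoplasmic reticulum, against 8.70% of all rising genes, so the share is near that of the table as a whole.

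Promoters of 46 of the 61 genes were found in the RefSeq table of build GRCm38.p6, and their 250 bases before the start were searched on both strands for 8 short motifs, chosen with the genes known. TGACGTGG, an element bound by XBP1 and ATF6 in the unfolded protein response, was found in 2 of the 46 (4.35%), Pou2af1 and Txndc11, in 0.883% of the rising genes and in 0.603% of all 27025 genes with a promoter. ATTTGCAT, the octamer that POU2AF1 acts through, was found in Vpreb3 and Gpm6a (4.35%, against 2.56% of rising genes and 1.81% of all). GTAAACA, a forkhead motif, was found in 1 (2.17%, against 3.71% and 3.54%), Rab39b, and the E-box CAGCTG in 10 (21.7%, against 17.9% and 14.7%). Shorter cores that overlap the longer motifs were also counted. The core GACGTG was found in 6 (13.0%, against 5.83% and 5.87%) and the core TGACGT in 6 (13.0%, against 7.5% and 7.29%). The core ATTTGC was found in 6 (13.0%, against 9.89% and 10.5%) and the core CCACG in 17 (37.0%, against 36.6% and 31.0%). The 3 promoters of the secretory and B lineage genes that hold TGACGTGG or the octamer are shown because these genes share the high library, with the motif in capitals, read 5′ to 3′ on the gene's strand and ending at the base before the start. In Pou2af1 the element spans bases 61 to 54 before the start, in Txndc11 bases 102 to 95, and in Vpreb3 the octamer spans bases 45 to 38.
Pou2af1 promoter, chr9:51213440-51213689, plus strand: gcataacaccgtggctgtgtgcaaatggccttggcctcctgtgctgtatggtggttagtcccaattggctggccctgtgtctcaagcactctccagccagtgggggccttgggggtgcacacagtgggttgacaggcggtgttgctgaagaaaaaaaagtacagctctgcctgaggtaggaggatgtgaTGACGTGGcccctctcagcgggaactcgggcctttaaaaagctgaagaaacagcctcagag
Txndc11 promoter, chr16:11134533-11134782, minus strand: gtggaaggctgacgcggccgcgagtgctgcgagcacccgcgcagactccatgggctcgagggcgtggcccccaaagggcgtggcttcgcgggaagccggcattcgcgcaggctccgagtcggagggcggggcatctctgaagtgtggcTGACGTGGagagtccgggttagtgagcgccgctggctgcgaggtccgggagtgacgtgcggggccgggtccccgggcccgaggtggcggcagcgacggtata
Vpreb3 promoter, chr10:75948050-75948299, plus strand: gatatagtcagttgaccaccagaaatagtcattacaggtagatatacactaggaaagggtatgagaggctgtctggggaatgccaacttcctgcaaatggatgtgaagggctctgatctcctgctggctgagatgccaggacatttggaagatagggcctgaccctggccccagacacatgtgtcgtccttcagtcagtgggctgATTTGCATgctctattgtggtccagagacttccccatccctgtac
A match describes these letters only, and binding was not measured.

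Lymphatic endothelium was represented by 3 genes that were near 0 in wild type. Mmrn1, the secreted protein multimerin, read 2.59, 0.264 and 1.93 FPKM in overexpression libraries 2, 3 and 4. In wild type it read 0.0925, 0 and 0.0839 FPKM, which rest on 8, 0 and 7 fragments against 202, 25 and 159. Reln, the matrix protein reelin, read 2.44, 0.318 and 1.47 FPKM, with 0.202, 0.137 and 0.214 in wild type. Prox1, the defining transcription factor of this cell type, read 0.339, 0.0799 and 0.190 FPKM on 49, 14 and 29 fragments, and 0.0125, 0 and 0.0389 in wild type. All 3 genes were above wild type in every overexpression library, as were 92.3% of all rising genes. The same held for 5 of the 10 B and plasma cell genes, 3 of the 6 secretory, 4 of the 6 muscle and 4 of the 8 nerve genes. Library 4 reached 56.1% to 74.6% of library 2.

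Of 8 genes of the lymphatic list, 6 were in the table, all higher, with a median ratio of library 2 to library 3 of 5.70. Ccl21a, a chemokine that guides lymphocytes and dendritic cells, met the numbers and was set aside by name. It read 49.4, 2.20 and 13.6 FPKM, with 0.803, 0.123 and 0.320 in wild type. Ccl21a is also in the follicular dendritic and reticular cell list, so it does not mark lymphatic endothelium alone. Of the 10 genes of that list, 6 were in the table, with a median ratio of 1.15. The podoplanin gene Pdpn, also made by fibroblasts and carcinoma cells, read 38.1, 27.9 and 48.5 FPKM, and Stab2 read 0.235, 0.308 and 0.325 FPKM, so neither shared the pattern. None of the 9 blood endothelium genes was listed as changed.

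The 6 muscle genes were low, with a median of 1.25 FPKM in library 2, 0.141 in library 3 and 0.377 in library 4. Myh3, the embryonic myosin heavy chain, read 0.824, 0.0647 and 0.112 FPKM in libraries 2, 3 and 4 on 84, 8 and 12 fragments, with 0.0442, 0.0354 and 0.0275 in wild type. Myh8, the perinatal heavy chain, read 1.32, 0.118 and 0.226 FPKM on 139, 15 and 25 fragments, with 0.0602, 0.0601 and 0.0802 in wild type. Myl4, an embryonic and atrial light chain, read 1.17, 0.228 and 0.218 FPKM, with 0.164, 0.0821 and 0.150 in wild type. In these 3 genes library 4 reached only 13.5%, 17.1% and 18.7% of library 2 and was near library 3.

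Casq2, a calcium-binding protein of the sarcoplasmic reticulum, read 3.06, 0.363 and 0.813 FPKM, with 0.230, 0.167 and 0.368 in wild type, so library 3 fell within the wild-type range. Mymk, the membrane protein that fuses myoblasts, read 1.71, 0.164 and 0.528 FPKM on 43, 5 and 14 fragments. Chrng, the fetal subunit of the muscle acetylcholine receptor, read 0.713, 0.102 and 0.558 FPKM on 23, 4 and 19 fragments, and with 78.3% of library 2 in library 4 it departed from the other muscle genes. Over the 6 muscle genes the median share of library 4 in library 2 was 22.6%, against 59.8% over the 61. The muscle group was put together after the values were seen, and the difference was not tested. Of 27 genes of the skeletal muscle list, which holds adult myosins and troponins, none was listed as changed. By the table's terms, skeletal muscle contraction was given to 5 of the 1505 rising genes (0.332%). Of these, 4 are among the 61 (Stac2, Myh8, Myh3 and Chrng) and the other is Tnni3. Stac2 was put with the nerve genes by hand, and its library 4 was 74.2% of library 2. That is near the share of Chrng and far above those of Myh3 and Myh8, so the 4 genes did not share one pattern. Myh3 and Myh8 are close copies of other myosin genes, and the read counter is not given in the sources used here, so their counts may share reads.

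Of the 8 genes of nerve or excitable cells, 7 were at least 0.5 times as high in library 4 as in library 2. The same held for 41 of the 61 genes and for 1383 of the 1444 rising genes outside the 61. The count thus does not set the nerve genes apart from rising genes in general. Cacna1h, a low-voltage calcium channel, read 6.28, 0.330 and 5.99 FPKM in libraries 2, 3 and 4, with 0.466, 0.554 and 0.611 in wild type. Library 3 was the lowest of the 6, and library 4 was 95.4% of library 2. Stac2, an adaptor of calcium channels, read 15.8, 3.10 and 11.7 FPKM, with 0.902, 1.40 and 1.74 in wild type. Gpm6a, a neuronal membrane glycoprotein, read 3.08, 0.221 and 1.97 FPKM, with 0.332, 0.181 and 0.360 in wild type. The remaining 5, namely Shisa8, Rab39b, Chrnb4, Lrrn3 and Pcdh10, stood at 0.166 to 1.35 FPKM in library 2, on 33 to 75 fragments. Across these 8 genes library 4 was 39.5% to 132% of library 2, with a median of 69.9%. Of 12 Schwann cell and 14 neuron genes, 4 and 2 were in the table and none is among the 61.

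The other 28 genes belong to no group above. Oosp1, named as an oocyte secreted protein, read 39.4, 1.96 and 14.7 FPKM in libraries 2, 3 and 4, with 3.01, 1.23 and 2.36 in wild type, so library 3 was within the wild-type range. None of the 13 gonad genes was in the table. Prg2, the major basic protein of eosinophil granules, read 18.9, 2.35 and 5.94 FPKM, with 1.43, 0.912 and 2.72 in wild type. It did not move with the other eosinophil genes: Ear2, an eosinophil ribonuclease, read 14.7, 64.3 and 14.6 FPKM, and the 4 of 7 eosinophil genes in the table had a median ratio of 0.992. Ly6a2, of a family of near-identical surface proteins that may share reads, read 28.7, 3.73 and 18.3 FPKM, with 4.79, 6.32 and 6.37 in wild type, all above library 3.

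Ctse, the aspartic protease cathepsin E, read 15.8, 2.33 and 10.7 FPKM, with 1.77, 1.72 and 1.73 in wild type, and its groups did not overlap. Endou, an endoribonuclease, read 5.87, 0.679 and 3.32 FPKM, with 0.761, 0.724 and 0.770 in wild type. Library 3 was just below that narrow range. Rhobtb1 read 7.94, 1.90 and 4.83 FPKM, with 1.13, 0.817 and 1.28 in wild type, and Hook1, a microtubule adaptor, read 3.58, 0.857 and 2.15 FPKM, with 0.309, 0.500 and 0.481. Both were higher than wild type in all 3 overexpression libraries. Alpl, tissue-nonspecific alkaline phosphatase, read 4.21, 0.768 and 2.61 FPKM, with 0.536, 0.362 and 0.901 in wild type, and Eef1akmt3, a methyltransferase of an elongation factor, read 3.52, 0.328 and 1.70 FPKM on 53, 6 and 27 fragments, with 0.359, 0.479 and 0.310 in wild type. For both, library 3 was within the range of wild type.

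Sgpp2, a phosphatase of sphingosine phosphate, had the largest ratio of library 2 to library 3, and read 1.66, 0.0565 and 0.845 FPKM on 121, 5 and 65 fragments, with 0.198, 0.136 and 0.192 in wild type. Trp73, a member of the p53 family, read 1.63, 0.114 and 1.18 FPKM, with 0.125, 0.0208 and 0.0540 in wild type. Of 20 p53 target genes, 4 were in the table, with a median ratio of library 2 to library 3 of 2.50. All 4 were higher in libraries 2 and 4 than in library 3. Over the 1444 rising genes outside the 61, library 4 was below library 3 in 481. None of the 4 p53 targets is among the 61. Trp53inp1 met the numbers at 72.3, 9.87 and 31.0 FPKM, and it, Btg2 and Eda2r are left out by name in the rule. Prss35, a secreted protease-like protein, read 1.13, 0.0863 and 1.33 FPKM on 54, 5 and 67 fragments and was highest in library 4. Mst1, the macrophage-stimulating protein, read 1.06, 0.0833 and 0.551 FPKM on 42, 4 and 23 fragments, and the kinase gene Srms 2.36, 0.250 and 0.907 FPKM on 101, 13 and 41. Outside the Gm and LOC loci 9 genes remain, namely Angptl1, Ankrd55, Akap17b, Faxc, Timd2, Mfsd4a, Spef2, 2410004P03Rik and the agouti gene a. They stood at 0.191 to 3.12 FPKM in library 2. The 5 predicted or uncharacterised loci stood at 1.04 to 8.56 FPKM there.

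The depth behind these values was 16824351, 20410060 and 17744093 fragments in overexpression libraries 2, 3 and 4 and 17994311 to 18668395 in wild type, so library 3, in which the genes were low, was the deepest. The genes held a median of 173 fragments in library 2 (23 to 12405) and 27 in library 3 (4 to 3537), and 18 of the 61 had under 10 fragments in library 3, so their ratios carry a large counting error. Their median wild-type mean was 0.291 FPKM, below the 1.10 FPKM of the other rising genes. Within wild type the highest library was under 2 times the lowest for 34 of the 61 genes (55.7%), against 71.8% of the other rising genes. The epithelial keratin gene Krt18, listed as lower by the authors, stood at 131, 172 and 162 FPKM in libraries 2, 3 and 4 of overexpression, against 394, 322 and 339 FPKM in wild type. It was thus lower in all 3 overexpression libraries, while the listed plasma cell, B cell and T cell genes were higher in the mean and present in every library. The mammary epithelium list, which holds Krt18, did not move as one: 6 of its genes were in the table, 4 higher and 2 lower. Among the higher was Epcam, at 8.97, 3.304 and 5.74 FPKM in libraries 2, 3 and 4, against 1.33, 1.196 and 1.24 in wild type. The stratified epidermis and hair follicle lists had 2 genes each in the table, all lower. Krt18 alone therefore does not describe the epithelial genes, and its part in the results was not tested. The level of Foxp1 was not analysed here.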

How the data were processed

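Poly(A)-selected RNA was sequenced as paired ends, per the labels' protocols. Per the submitters' processing notes the authors used Trimmomatic, HISAT2 and DESeq, without versions, and the build hg19, although the labels give mouse. Which counter and annotation were used is not given in the sources used here. Expression values deposited by the authors were taken as FPKM from the numbers. The authors also deposited a mean normalised signal per group, a fold ratio, its log2 value, and a p-value and q-value per gene. Read counts rebuilt from FPKM and the group means were whole for 100.0% of 10332 values, within 0.01, which gave the library totals. The column numbered 4 matches no sample title and was kept in the overexpression group that its name gives. The plan took the authors' call as the main one.

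Limma 3.58.1 (R 4.3.3) was run on log2(FPKM + 1) and, with voom, on the rebuilt counts, adjusted by Benjamini-Hochberg over the 1722 listed genes; a gene was called at an adjusted p under 0.05 with a difference of 1 or more on the log2 scale. The voom fit was tested on simulated counts, and the fits on log2(FPKM + 1) were not. Ratios to wild type used a pseudocount of 0.01 FPKM. The genes, the 40 marker lists (511 entries) and the role groups were chosen with earlier results of these data known. Full values are given for the 14 genes in a list and the 15 others with a symbol that were highest in library 2; values of others were added after they were seen. Same-numbered libraries deviated with correlations of 0.02 and 0.08. Alternatives were another test, pseudocount, filter, scaling, ratio and left-out library. Intervals are not given, and fragment counts show counting error only.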

Additional observations from a re-analysis of the deposited data

How the results depend on the processing

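Against the authors' call of 61, limma called 26 on log2(FPKM + 1) (42.6%, against 36.5% of the genes fitted), 16 without the trend (26.2%, 35.5%), 47 with a pseudocount of 0.1 (77%, 79.1%), 27 of 37 with a filter of 1 FPKM (73%, 47.3%) and 0 after median centring (13 at an unadjusted p under 0.05; 1.51% of all). Voom on the rebuilt counts called 33 (54.1%, 81.6%), and 1 when adjusted over all 15689 genes tested (1.64%, 45.1%). Leaving out each library gave 8 to 61 calls: 8 in voom and 10 in limma without wild-type library 1 (58.8% and 26.5% of all), 16 and 15 without wild-type library 2 (71.4% and 35.4%), 17 and 17 without wild-type library 3 (75.4% and 40%). The calls were 24 and 9 when overexpression library 2 was dropped (75.4% and 34.3% of all), 61 and 39 for library 3 (80.3% and 39.5%), and 23 and 12 for library 4 (73.3% and 31.5%). With the replicate number as a block limma called 0 (6 at an unadjusted p under 0.05) and 357 of the listed genes as higher. Only the numbers 2 and 3 are shared, so the libraries share a number, not a known pairing.

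A ratio of 3 or 8 in place of 4 gave 102 or 28 genes, all with library 4 above every wild-type library, and 20 or 6 in a marker list in place of 14. The median log2 ratio of library 4 to wild type was 2.39, and 2.21 and 2.73 at ratios of 3 and 8, 2.07 and 1.14 with pseudocounts of 0.1 and 1, 2.33 to 2.53 without each wild-type library, and 1.08 after scaling each library to the median of the listed genes. For library 3 it was 0.51, with 0.34 and 0.07 for those pseudocounts, 0.41 to 0.58 without each wild-type library, and -0.53 after that scaling, which divides out a rise shared by the listed genes. Genes under 10 fragments limit what the low ratios show.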

Other observations

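Splits of this size between overexpression libraries were not particular to library 2. Of the 1505 rising genes, 70 were at least 4 times higher in library 2 than in library 3, 53 in library 4 than in library 3, 43 in library 3 than in library 2, 31 in library 3 than in library 4, 30 in library 4 than in library 2 and 14 in library 2 than in library 4. In 35 of the 70, library 4 was also at least 4 times library 3, and 29 of these are among the 61 described genes. Genes that library 3 carried included Cyp2e1, a liver and fat cytochrome gene, at 27.8, 350 and 10.4 FPKM in libraries 2, 3 and 4, and Oxtr, the oxytocin receptor gene, at 0.0324, 0.587 and 0.215. Elf5, a mammary epithelial factor gene, was listed at 0 in library 2 and read 1.24 and 0.217 FPKM in libraries 3 and 4. These genes were chosen after their values were seen.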
